A study of Mus musculus with 6 samples.

Results

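Cells recognise foreign or misplaced nucleic acid in their cytosol through a small set of proteins, and 6 genes of that set are described here in macrophages from mouse tumours: Ddx58, Ifih1, Dhx58, Mavs, Tmem173 and Zbp1. The rule that names them uses symbol and function and sets no threshold on a measured value. The members were, however, chosen with earlier results of these data known. All 6 have a row in the table of 21760 gene symbols, and all 6 were among the 15560 genes abundant enough to test. Ddx58 encodes RIG-I, Ifih1 encodes MDA5 and Dhx58 encodes LGP2, Tmem173 encodes STING, and Zbp1 encodes a sensor of Z-form nucleic acid.

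The macrophages were sorted by flow cytometry from tumours of MC38, a mouse colon carcinoma line, implanted subcutaneously in C57BL6 mice that received no other treatment and dissected after 16 days. Tumours were wild type (WT, 2 mice) or knocked out (KO) for Xkr8, from KO clone 1 (2 mice) or KO clone 2 (2 mice), with 1 RNA library per mouse. Xkr8 is a scramblase that brings phosphatidylserine to the surface of dying cells, and the study asks what happens to tumour macrophages when this exposure is blocked. The knockout lies in the tumour cells, each KO group is a single clone, and the mice and their macrophages carry no deletion that the labels name. The sources used here do not state the markers of the sorting gate or the sex and age of the mice.

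RIG-I and MDA5 are helicases that bind viral or self double-stranded RNA and then engage MAVS, an adaptor on mitochondria. LGP2 lacks the signalling domains of the other two and modulates them. STING sits in the endoplasmic reticulum and is switched on by the cyclic dinucleotide that cGAS makes on DNA. MAVS and STING both recruit the kinase TBK1, which activates IRF3 and so the genes of type I interferon. Several of the sensors, RIG-I, MDA5, LGP2 and ZBP1 among them, are themselves induced by interferon, and in macrophages they are known to form part of the antiviral state. ZBP1 can also drive necroptosis through RIPK3 and MLKL.

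Promoter sequence is shown first because interferon-induced genes often carry an interferon-stimulated response element near their start. RefSeq promoter windows, from 250 bases before to 50 bases after the transcription start on GRCm38.p6, were matched for 3 of the 6 members: Ddx58, Ifih1 and Mavs. The core of the element was searched on both strands as GAAA, any 2 bases and GAAA again. It occurred in 1131 of 32851 windows, or 3.44%. Of the 3 windows, those of Ddx58 and Ifih1 each held 1 match and that of Mavs held none. Both matches lay downstream of the annotated start, at bases 3 to 12 in Ddx58, where it reads on the reverse strand, and at bases 33 to 42 in Ifih1, where it reads on the forward strand. The 30 bases around each match are printed 5′ to 3′ on the gene's own strand, with the match in capitals.
Ddx58, chr4:40239804-40239833, minus strand: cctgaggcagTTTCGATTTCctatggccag
Ifih1, chr2:62646206-62646235, minus strand: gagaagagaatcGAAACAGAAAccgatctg

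The 250 bases before the start are printed for the same 3 genes so that the pair with higher levels in KO libraries can be read beside Mavs, whose levels overlapped. No match to the core lies within these stretches, so they carry no capitals. That says only that these letters are not in these bases, and a match is a string of letters, not a bound site.
Ddx58, chr4:40239826-40240075, minus strand: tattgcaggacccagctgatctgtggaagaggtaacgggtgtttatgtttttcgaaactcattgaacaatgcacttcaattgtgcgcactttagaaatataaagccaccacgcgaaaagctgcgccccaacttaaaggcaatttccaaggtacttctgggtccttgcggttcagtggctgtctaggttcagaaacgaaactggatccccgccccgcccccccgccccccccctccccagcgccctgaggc
Ifih1, chr2:62646256-62646505, minus strand: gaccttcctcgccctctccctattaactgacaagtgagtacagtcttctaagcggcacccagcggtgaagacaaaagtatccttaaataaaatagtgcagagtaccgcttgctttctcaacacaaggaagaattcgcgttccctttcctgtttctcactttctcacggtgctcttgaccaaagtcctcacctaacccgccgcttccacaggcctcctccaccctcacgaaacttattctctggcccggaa
Mavs, chr2:131233813-131234062, plus strand: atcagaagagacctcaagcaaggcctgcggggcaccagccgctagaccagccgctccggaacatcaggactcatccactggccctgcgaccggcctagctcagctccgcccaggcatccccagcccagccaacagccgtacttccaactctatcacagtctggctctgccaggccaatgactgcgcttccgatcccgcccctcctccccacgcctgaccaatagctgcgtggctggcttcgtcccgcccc

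Library totals were 37090034 to 40022755 estimated counts in 5 libraries and 20038047 in WT mouse 2, which stood apart in other ways too. The ribosomal precursor Rn45s took 24.6% of its counts, against 1.46% to 7.12% elsewhere. On log2(CPM + 1), CPM being counts scaled to library size, it correlated with the other libraries at r = 0.932 to 0.946, while the other 5 correlated among themselves at 0.981 to 0.996. Macrophage markers were found in every library, with 13 of 13 detected and a summed level of 10900 and 14350 CPM in WT mice 1 and 2 and 11690 to 13570 CPM in KO mice. Markers of T and NK cells summed to 31.7 and 55.1 CPM in WT against 158 to 283 CPM in KO mice. Xkr8 itself, which the labels do not call deleted in the macrophages, was at 4.14 to 6.97 CPM across the libraries, which is no check of the tumour genotype.

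Across the 6 members, Ifih1, Zbp1 and Ddx58 stood higher in all 4 KO libraries than in both WT libraries, by 2.33-fold, 2.10-fold and 1.70-fold in the fit. Dhx58, Mavs and Tmem173 did not separate the genotypes. In the edgeR quasi-likelihood test, adjusted by Benjamini-Hochberg over all genes, 0 of the 6 passed 0.05, against 0.135% of all genes tested (21 of 15560). At an unadjusted p under 0.05, 3 of 6 stood higher and 0 lower, against 6.25% of all genes higher and 7.38% lower. DESeq2 called 2 of 6, Ifih1 and Zbp1, where it called 3.21% of all genes, and limma-voom called 0 of 6 (0.103% of all genes). All 4 KO libraries above both WT libraries was the pattern of 3 of 6 members and of 12.9% of all genes tested. Every log2 fold change was positive, as was that of 50.2% of all genes.

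**Figure D1:**
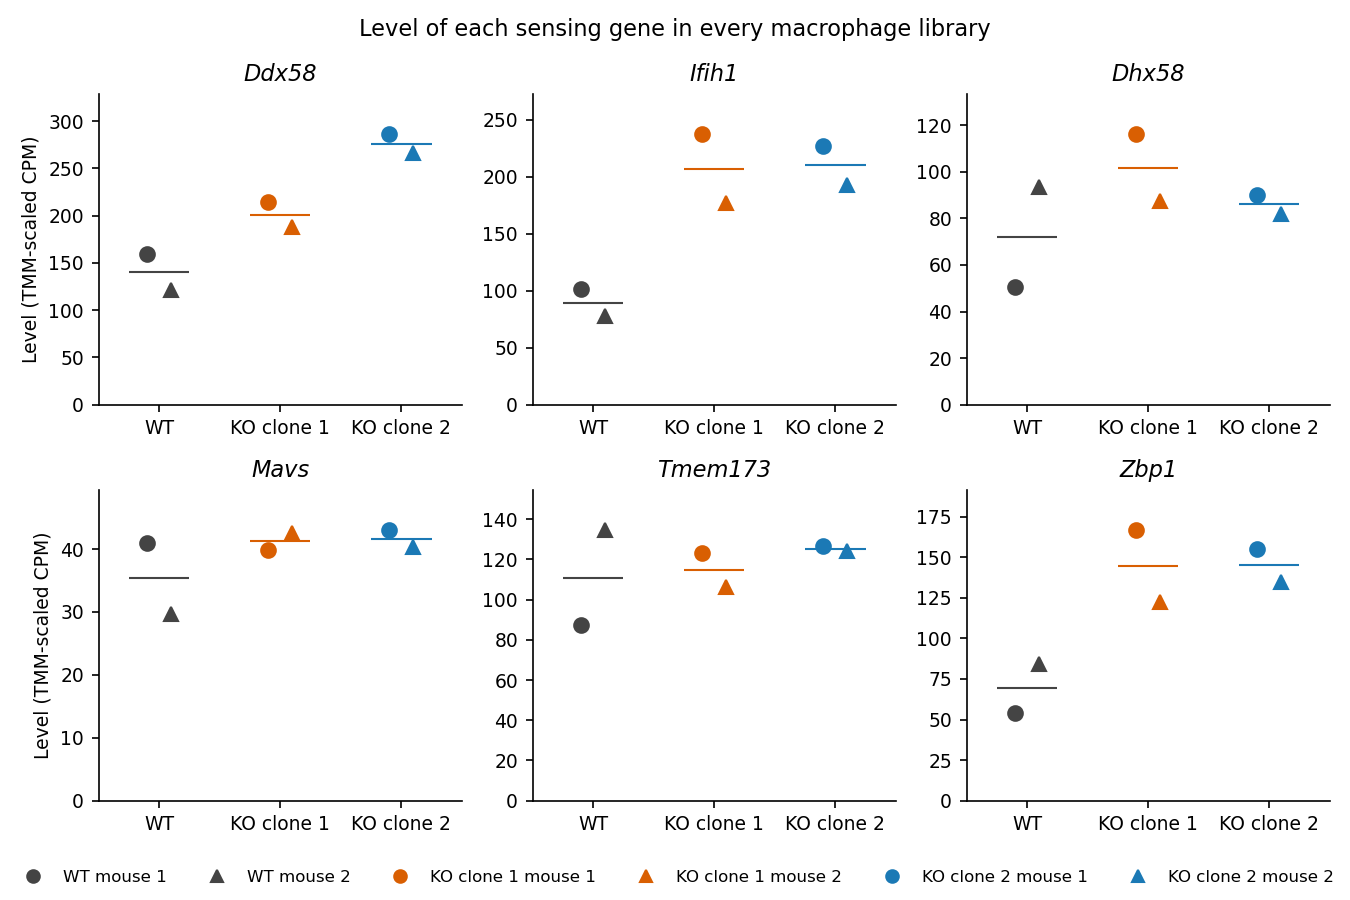
Level of each of the 6 genes in every macrophage library, in CPM on TMM-scaled library sizes, by tumour genotype; symbols mark the mouse and short lines the group mean of 2. Each panel has its own axis from 0. Ifih1, Zbp1 and Ddx58 have all KO points above both WT points, while the WT points of Dhx58, Mavs and Tmem173 lie far enough apart to overlap the KO points.

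Ifih1 encodes MDA5, the receptor for long double-stranded RNA. The gene lies on the minus strand of chr2:62595798-62646255 (GRCm38, GENCODE M21), with 16 exons in its longest coding transcript. Its level was 101.8 CPM in WT mouse 1 and 77.39 CPM in WT mouse 2. KO clone 1 gave 237.4 and 176.7 CPM, and KO clone 2 gave 227.3 and 192.9 CPM. The lowest KO library was therefore well above the higher WT library. Group means were 89.6 ± 17.2 CPM in WT (SD, n = 2) and 208.6 ± 28.5 CPM in KO (SD, n = 4). The log2 fold change was 1.22 ± 0.21 (SE, 95% interval 0.72 to 1.71), with an unadjusted p of 0.000528 and an adjusted p of 0.0891 in edgeR. It ranked 92 of 15560 genes by p. DESeq2 gave 1.22 with an adjusted p of 4.04e-05. Over 14 alternatives the value stayed between 1.01 and 1.44, and 3 of them passed the threshold: DESeq2, edgeR with no filter on low counts (adjusted p = 0.0475, 0.516% of all genes called) and edgeR without WT mouse 1 (1.44, adjusted p = 0.00284).

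Ddx58 encodes RIG-I, which binds short double-stranded RNA with a 5′ triphosphate. It lies on the minus strand of chr4:40203773-40239828, with 18 exons. WT mice 1 and 2 had 159 and 121.8 CPM. Clone 1 had 214.7 and 187.8 CPM and clone 2 had 286.4 and 266.1 CPM, so that all KO libraries were above WT and both clone 2 libraries were above both of clone 1. Means were 140.4 ± 26.3 CPM in WT (SD, n = 2) and 238.8 ± 45.4 CPM in KO (SD, n = 4). The difference of 0.77 ± 0.24 on the log2 scale (95% interval 0.22 to 1.31) had an unadjusted p of 0.0124 and an adjusted p of 0.287 in edgeR. Without WT mouse 1 it was 0.98 with an adjusted p of 0.0225, and without WT mouse 2 it was 0.56 with an adjusted p of 0.606, both in edgeR.

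Dhx58 encodes LGP2, the helicase that modulates RIG-I and MDA5. It lies on the minus strand of chr11:100694884-100704271 and has 13 exons in its longest coding transcript. Of the merged exon bases of all its transcripts, 141 (4.31%) are shared with the antisense gene Dhx58os. Whether strand was used in counting is not stated, so reads of the 2 genes cannot be told apart there. WT mouse 1 had 50.65 CPM, the lowest of the 6 libraries, and WT mouse 2 had 93.56 CPM. KO clone 1 gave 116.2 and 87.32 CPM and KO clone 2 gave 90.03 and 81.95 CPM, so WT mouse 2 exceeded 3 of the 4 KO libraries. Means were 72.1 ± 30.3 CPM in WT (SD, n = 2) and 93.9 ± 15.3 CPM in KO (SD, n = 4). The log2 fold change of 0.38 ± 0.27 had a 95% interval of -0.25 to 1.02 and an adjusted p of 0.481 in edgeR. Leaving out WT mouse 1 gave 0.018 and leaving out WT mouse 2 gave 0.87, and it passed under none of the 14 alternatives.

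Mavs encodes the adaptor through which RIG-I and MDA5 signal. It lies on the plus strand of chr2:131234063-131248025 and has 7 exons. Its level was 40.92 CPM in WT mouse 1 and 29.72 CPM in WT mouse 2. The 4 KO libraries spanned 39.92 to 43.01 CPM, the tightest range of the 6 members, with the highest 1.08 times the lowest. WT mouse 1 lay inside that range and WT mouse 2 below it. The log2 fold change was 0.23 ± 0.18 (95% interval -0.20 to 0.66), with an adjusted p of 0.520 in edgeR. Without WT mouse 2 the value was -0.0059, and without WT mouse 1 it was 0.49 with an adjusted p of 0.0343. The difference thus rested on WT mouse 2.

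Tmem173 encodes STING, the adaptor of the DNA-sensing arm. WT mouse 1 had 87.28 CPM, the lowest library, and WT mouse 2 had 134.6 CPM, the highest. All KO libraries lay between them, at 123.4 and 106.1 CPM in clone 1 and 126.8 and 124 CPM in clone 2. The log2 fold change was 0.12 ± 0.21 (95% interval -0.37 to 0.60), with an adjusted p of 0.768 in edgeR. It turned to -0.15 when WT mouse 1 was left out and was 0.44 when WT mouse 2 was (adjusted p = 0.447 in edgeR). As a fold change that interval runs from 0.773 to 1.52.

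Zbp1 encodes a sensor with domains that bind Z-DNA and Z-RNA. It lies on the minus strand of chr2:173206612-173218923 and has 8 exons. WT mice 1 and 2 had 54.14 and 84.13 CPM. Clone 1 gave 166.7 and 122.7 CPM and clone 2 gave 155.2 and 134.9 CPM, each above both WT libraries. Means were 69.1 ± 21.2 CPM in WT (SD, n = 2) and 144.9 ± 19.8 CPM in KO (SD, n = 4). The log2 fold change was 1.07 ± 0.24 (95% interval 0.51 to 1.62), with an unadjusted p of 0.00232 and an adjusted p of 0.161 in edgeR. In DESeq2 it was 1.06 with an adjusted p of 0.0054. Without WT mouse 1 it was 0.80 (adjusted p = 0.0200 in edgeR), and without WT mouse 2 it was 1.40 (adjusted p = 0.0608 in edgeR).

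**Figure D2:**
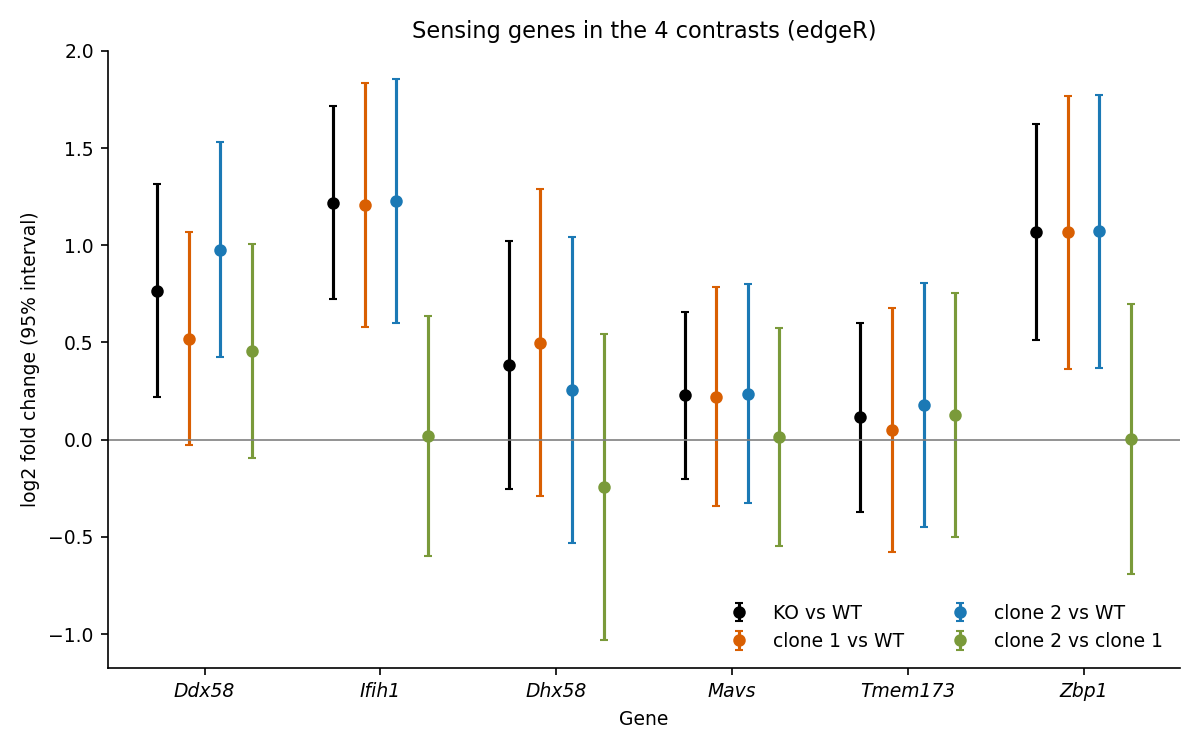
log2 fold change of each gene with its 95% interval from edgeR in 4 contrasts: KO to WT, each clone to WT, and the clones to each other. The intervals of Ifih1 and Zbp1 lie above 0 in the 3 contrasts with WT, and every interval between clones includes 0. An interval that leaves out 0 belongs to a single gene and is not adjusted over all genes. Intervals between clones use a spread shared with the WT libraries.

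In these bulk libraries, fewer cells of a type and less RNA per cell cannot be told apart. Markers of other cells moved beside the 3 higher members. Of 19 T and NK cell markers tested, 19 had a positive log2 fold change, 5 passed the edgeR threshold as higher in KO, and 17 had all KO libraries above both WT. Among 12 monocyte markers, 10 were positive, 7 had all KO libraries above both WT and 2 passed as higher, with a median log2 fold change of 1.76. Those 2 were Ly6c2, at 2.72 and 4.26 CPM in WT against 85.5 to 100.4 CPM in KO, and Ms4a4c, at 130.3 and 99.96 CPM against 384 to 441 CPM. The monocyte sum, 3243 and 4763 CPM in WT against 3469 to 4222 CPM in KO, was mostly Fn1. Conventional dendritic cell markers summed to 70.4 and 129 CPM in WT against 100 to 117 CPM in KO, with Fscn1 the largest part. Of these 10 markers, 7 were positive, 7 had all KO libraries above both WT and 1 was called higher. Their median log2 fold change was 0.93. Plasmacytoid dendritic cell markers summed to 242 and 639 CPM in WT, mostly Bst2, against 348 to 412 CPM in KO, with 0 of 8 called and Klk1 and Ly6d at 0 in at least 1 library. Neutrophil markers summed to 40.1 and 38.9 CPM in WT against 56.3 to 74.8 CPM in KO, mostly Csf3r, with Ly6g, Retnlg, S100a9 and Camp at 0 in at least 1 library. Of 7 tested, 6 were positive and 4 had all KO libraries above both WT, with a median log2 fold change of 1.97. Endothelial markers summed to 23.5 and 32.1 CPM against 48.6 to 61.9 CPM, mostly Pecam1, with Cldn5 and Emcn at 0 in at least 1 library. B cell markers summed to 5.89 and 3.92 CPM against 8.44 to 13.6 CPM, with Cd79a and Pax5 at 0 in at least 1 library. The remaining lists, of 2 cell types, were lower in sum in every KO library than in both WT libraries. Fibroblast markers summed to 4159 and 12010 CPM in WT against 2461 to 3943 CPM in KO, mostly Col3a1. Gene by gene they were mixed, since 5 of the 9 tested stood higher in KO in the fit (list median 0.12). Dcn was above both WT libraries in every KO library, at 254.5 and 126.8 CPM in WT against 285.8 to 470.4 CPM. Tumour epithelial markers summed to 15.6 and 44.1 CPM in WT against 11.3 to 13.2 CPM in KO, mostly Cdh1, with 1 of 3 tested positive. No marker of these 5 lists passed the edgeR threshold. The part of these cells in the sensor levels was not tested.

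The 2 WT libraries disagreed in a way that split the members into opposite groups. WT mouse 2 was lower than WT mouse 1 for Ddx58 (0.766-fold), Ifih1 (0.761-fold) and Mavs (0.726-fold). It was higher for Dhx58 (1.85-fold), Tmem173 (1.54-fold) and Zbp1 (1.55-fold). Within the KO group the highest library exceeded the lowest by at most 1.53-fold, for Ddx58. The members' overlap also depended on the scaling of WT mouse 2, whose TMM factor was 0.726 against 0.983 to 1.16. On raw library totals Dhx58 had 58.87 and 67.87 CPM in WT and at least 88.45 CPM in KO, and Tmem173 had 101.4 and 97.61 CPM in WT and at least 109.8 CPM in KO. On that scale 5 of 6 members had all KO libraries above both WT, Mavs being the exception, against 8.73% of all genes. Raw totals also moved the median log2 difference of all genes up by 0.13, and relative to the median on that scale the difference was 0.47 for Dhx58 and 0.18 for Tmem173, against 1.25 for Ifih1.

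**Figure D3:**
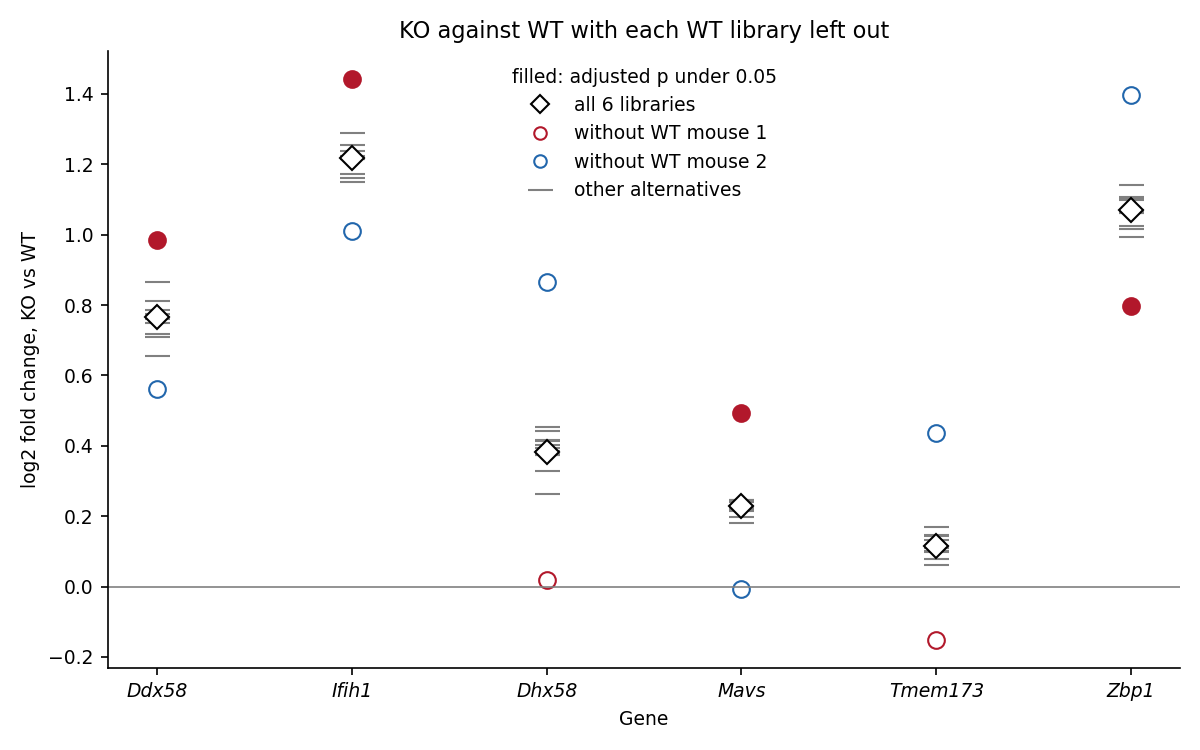
log2 fold change of each gene in KO against WT with all 6 libraries (diamonds), without WT mouse 1 or without WT mouse 2 (circles), and under the other alternatives (grey dashes). Filled diamonds or circles passed an adjusted p of 0.05, and calls among the dashes are not marked. Ddx58, Ifih1, Mavs and Zbp1 are filled only without WT mouse 1, where 37.5% of all genes were called.

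The threshold itself moved with WT mouse 1. With that library left out, WT mouse 2 stood alone for WT, its spread assumed to be that of the KO libraries, and edgeR called 6020 of 16033 genes (37.5%) and 4 of the 6 members. With WT mouse 2 left out it called 28 of 16075 genes (0.174%) and 0 of the 6 members. Leaving out any KO library gave 1 to 4 genes and 0 members.

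Ratios between members within 1 library do not depend on library scaling. Of the 15 pairs, 8 had ratios of estimated counts that did not overlap between genotypes, against 24.6% of all pairs of the 14968 tested genes with counts in every library. The gap was small for some of the 8. Dhx58 to Ifih1 was at 0.498 and 1.21 in WT and 0.396 to 0.494 in KO. Zbp1 to Mavs was at 1.32 and 2.83 in WT and 2.88 to 4.18 in KO. Ifih1 stood at 0.640 and 0.636 times Ddx58 in the WT libraries, almost equal although their levels differed, and at 0.725 to 1.11 in KO. Zbp1 stood at 0.620 and 0.625 times Tmem173 in WT and at 1.09 to 1.35 in KO. The ratio of Zbp1 to Dhx58 was 1.07 and 0.899 in WT and 1.41 to 1.72 in KO. For Mavs the ratio to Ifih1 was 0.402 and 0.384 in WT and 0.168 to 0.241 in KO, and that to Ddx58 was 0.257 and 0.244 in WT and 0.150 to 0.227 in KO. So Ifih1 and Ddx58, relative to their adaptor Mavs, were higher in every KO library than in both WT libraries. For Ddx58 the gap was narrow, with Mavs to Ddx58 at 0.244 in WT mouse 2 and 0.227 in KO clone 1 mouse 2. Tmem173 relative to Ifih1 was at 0.858 and 1.74 in WT and 0.520 to 0.643 in KO. A ratio shows unequal levels and not which gene of the pair differed, and the pairs share genes.

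**Figure D4:**
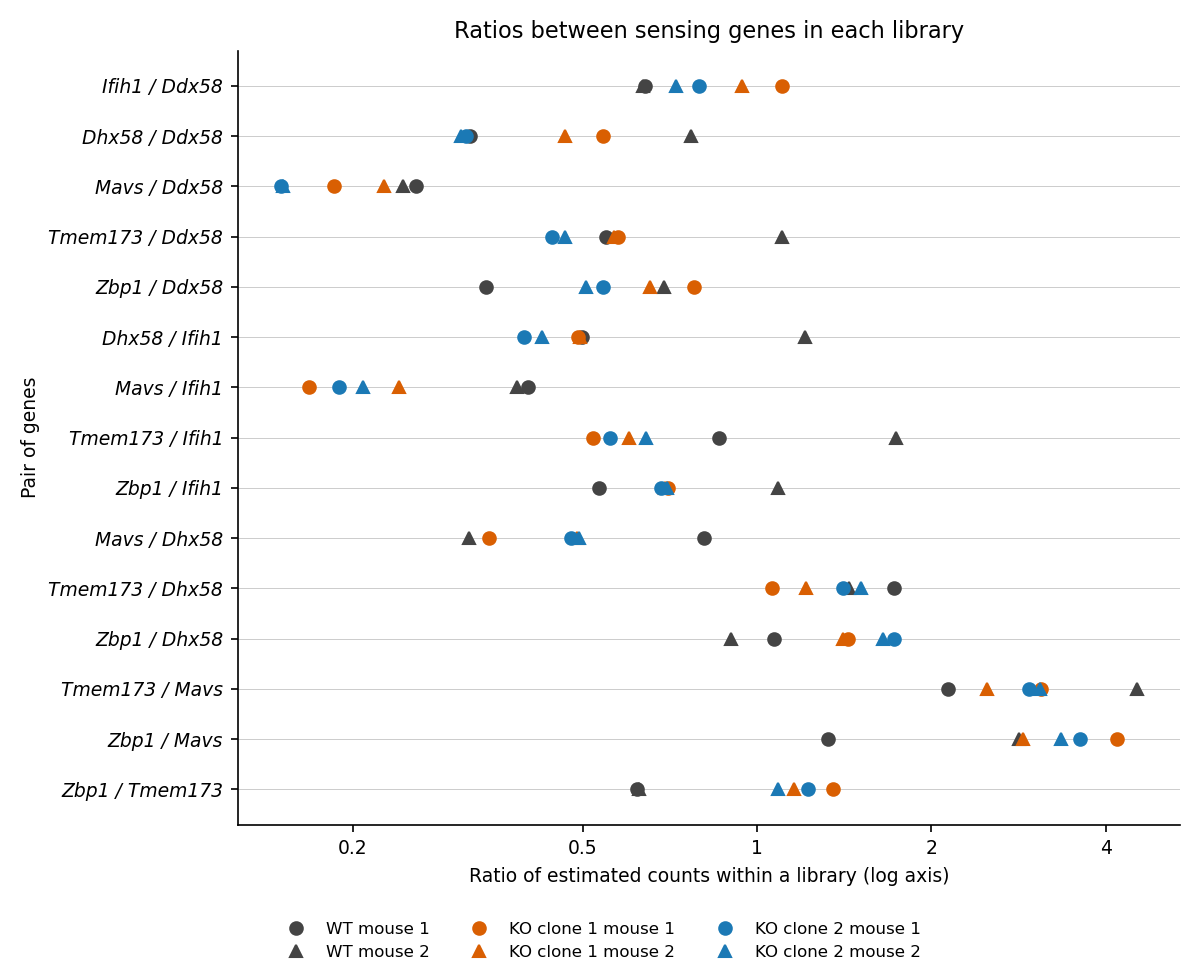
Ratio of estimated counts between each pair of the 6 genes within a library, on a log axis, with 1 symbol per mouse. Pairs such as Ifih1 to Ddx58 and Zbp1 to Tmem173 have nearly equal ratios in both WT libraries and higher ratios in all KO libraries, while Mavs to Ifih1 is lower in all KO libraries.

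Levels of different genes were compared per kilobase of merged exon length. In KO libraries Tmem173 stood at 43.8 ± 3.44 CPM per kb and Zbp1 at 41.1 ± 5.61, a pair that did not differ beyond their spread (SD, n = 4). Ddx58 followed at 33.9 ± 6.45 CPM per kb, and lay below Zbp1 in all 4 KO libraries. Dhx58 at 28.7 ± 4.66 and Ifih1 at 25.5 ± 3.49 CPM per kb came next, Dhx58 within the spread of Ddx58 and Ifih1 within that of Dhx58. Mavs was the lowest at 12.4 ± 0.471 CPM per kb. In WT libraries Tmem173 led at 40.5 ± 12.2 CPM per kb (SD, n = 2), Dhx58, Ddx58 and Zbp1 lay between 19.6 and 22.04, Ifih1 had 10.97 and Mavs 10.56. Per kilobase of the longest coding transcript, a length chosen after the data were seen, Zbp1 led the KO libraries at 72.8 and Mavs remained the lowest at 13.6 CPM per kb, so the order at the top depends on which isoform is made.

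Against WT the clones gave similar values for most members, with the same WT libraries in both comparisons. For clone 1 the log2 fold changes were 1.21 for Ifih1 (edgeR adjusted p = 0.312), 1.07 for Zbp1 (0.449), 0.52 for Ddx58 (0.712), 0.50 for Dhx58 (0.724), 0.22 for Mavs (0.749) and 0.050 for Tmem173 (0.948). For clone 2 they were 1.23 for Ifih1 (0.207), 1.07 for Zbp1 (0.311), 0.98 for Ddx58 (0.259), 0.26 for Dhx58 (0.694), 0.24 for Mavs (0.619) and 0.18 for Tmem173 (0.731). Neither clone had a member past the edgeR threshold, where each had 0.00643% of all genes past it. At an unadjusted p under 0.05 there were 2 members in clone 1 and 3 in clone 2, against 7.1% and 11.3% of all genes. DESeq2 called Ifih1 in clone 1 (1.19, adjusted p = 0.00847) and Ifih1 and Ddx58 in clone 2 (1.24, adjusted p = 0.00346, and 0.98, adjusted p = 0.0112), where it called 1.78% and 3.05% of all genes. limma-voom called 0 members in either. Without WT mouse 1, edgeR called 3 members in clone 1 (34.5% of all genes) and 4 in clone 2 (40.2%), and without WT mouse 2 it called 0 in clone 1 (0.361%) and 1 in clone 2 (1.16%).

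Clone 2 was set directly against clone 1 to ask whether the clones differ. Ddx58 had the largest difference, with clone means of 276.3 ± 14.4 and 201.3 ± 19.0 CPM (SD, n = 2 each) and no overlap. Its log2 difference was 0.46 with a 95% interval of -0.092 to 1.005, an unadjusted p of 0.0888 and an adjusted p of 1 in edgeR. Ifih1 differed by 0.021 (-0.60 to 0.64) and Zbp1 by 0.0037 (-0.69 to 0.70), so differences of up to about 1.56-fold and 1.62-fold remain within the intervals. Dhx58 differed by -0.24 (-1.03 to 0.54), Tmem173 by 0.13 (-0.50 to 0.75) and Mavs by 0.014 (-0.55 to 0.57). edgeR called 0 of 6 members and 0% of all genes, with 0 members and 3.23% of all genes at an unadjusted p under 0.05. DESeq2 and limma-voom also called 0 members, with 0.767% and 0% of all genes.

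Over the 6 libraries, Ddx58 and Ifih1 correlated at r = 0.899 on log2(CPM + 1), Ifih1 and Zbp1 at 0.868, and Dhx58 at 0.825 with Zbp1 and 0.824 with Tmem173. Mavs and Tmem173 ran at -0.451. These describe 6 points that share the offset of WT mouse 2 and the genotype. Among 10252 genes with a mean of at least 5 CPM, the nearest pattern to Ifih1 was that of Rnf135 (r = 0.999), which encodes the ubiquitin ligase RIPLET that acts on RIG-I. Ifi204, a DNA-binding PYHIN gene, followed at 0.998 and the T cell costimulatory receptor Cd28 at 0.996. The nearest to Zbp1 were Fgl2 (0.999), Npc2 (0.998) and Oas1g (0.995), an OAS family gene whose reads may be shared with near-identical copies. Ypel5 (0.999), AF251705 (0.998) and Asb13 (0.996) were nearest to Ddx58. Dhx58 lay nearest to Stat6 (0.992), Xdh (0.985) and Tnfrsf9 (0.985). For Mavs these were Zfp324 (0.998), Cptp (0.998) and Ndufaf4 (0.996), and for Tmem173 they were Rassf2 (0.996), Tmem86a (0.992) and Hspbap1 (0.990).

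The rest of the pathway was read from 11 lists of 170 symbols, of which 161 were in the table and 151 were tested. In KO against WT, 83 of the 151 had a positive log2 fold change and the median was 0.11, beside 0.0033 for all genes. With edgeR 0 passed in either direction, and 25 stood higher and 7 lower at an unadjusted p under 0.05 (6.25% and 7.38% of all genes). DESeq2 called 10, all higher (3.21% of all genes called), and limma-voom called 1, Irf7 (0.103%). All KO libraries were above both WT for 43 of the 151 and below for 9, against 12.9% and 10.7% of all genes. Without WT mouse 1 edgeR called 44 higher and 36 lower, where it called 37.5% of all genes, and without WT mouse 2 it called 0, where it called 0.174%.

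Upstream of MAVS, the list of RIG-I-like receptor activators and cofactors had 7 of 12 positive values, 3 higher at an unadjusted p under 0.05 and a median of 0.20. Ddx60, a helicase that assists RIG-I, had 44.6 and 30.1 CPM in WT against 72.2 to 104 CPM in KO, with a log2 fold change of 1.23 ± 0.25 (edgeR adjusted p = 0.131; DESeq2 adjusted p = 0.000855). Rnf135 had 15.8 and 13.3 CPM in WT against 20.6 to 23.9 CPM in KO, at 0.62 ± 0.18 (edgeR adjusted p = 0.283). Zc3hav1, which encodes the zinc-finger antiviral protein, was at 0.52 ± 0.15 (edgeR adjusted p = 0.282; DESeq2 adjusted p = 0.0464). Trim25, the ligase classically tied to RIG-I, had 76.7 and 173 CPM in WT against 104 to 161 CPM in KO, at -0.058 ± 0.34, and turned positive in limma-voom (0.034). Among 12 other double-stranded RNA receptors 10 values were positive, 6 were higher at an unadjusted p under 0.05 and 8 had all KO libraries above WT, with a median of 0.53. Its members include Tlr3, the endosomal receptor, at 1.26 ± 0.32 (edgeR adjusted p = 0.222) and Eif2ak2, which encodes the kinase PKR, at 0.80 ± 0.22 (edgeR adjusted p = 0.245). Leaving out WT mouse 1 gave this list a median of 0.49, and leaving out WT mouse 2 gave 0.32.

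Downstream of MAVS and STING, 10 of 18 adaptors, ligases and kinases had positive values, with 2 higher and 0 lower at an unadjusted p under 0.05 and a median of 0.10. Tbk1, the shared kinase, had 69.2 and 40.8 CPM in WT against 72.8 to 79.9 CPM in KO, at 0.49 ± 0.23 (edgeR adjusted p = 0.382). Its relative Ikbke was at 0.11 ± 0.30, with overlapping groups. Ifit3, which links MAVS to TBK1, was at 1.02 ± 0.20 (edgeR adjusted p = 0.119), and Azi2, a TBK1 adaptor, at 0.51 ± 0.18 (edgeR adjusted p = 0.331). Of the 8 transcription factors, 5 had all KO libraries above WT, and 2, Irf7 and Irf5, were higher at an unadjusted p under 0.05. Irf7, the interferon-induced factor that amplifies type I interferon, had 174 and 209 CPM in WT, 654 and 511 CPM in clone 1 and 511 and 487 CPM in clone 2. Its log2 fold change of 1.497 ± 0.21 was the nearest of the pathway genes to the edgeR threshold (adjusted p = 0.0561) and passed in DESeq2 (adjusted p = 9.95e-09) and limma-voom (adjusted p = 0.049). Irf3, which is activated by phosphorylation, had 34.1 and 50.2 CPM in WT against 29.7 to 36.0 CPM in KO, at -0.35 ± 0.21 (edgeR adjusted p = 0.434).

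Interferon transcripts themselves were scarce. Of 17 type I and III interferon symbols, 11 were in the table and 2 had enough counts to test. Ifnb1 had 3.71 and 5.78 CPM in WT, 4.80 and 4.11 CPM in clone 1, and 0.890 and 0.409 CPM in clone 2, so clone 2 stood below the other 4 libraries. The log2 fold change was -0.078 ± 0.44 for clone 1 against WT (edgeR adjusted p = 0.950) and -2.85 ± 0.48 for clone 2 against WT (edgeR unadjusted p = 0.000752, adjusted p = 0.144). Between the clones it was -2.78 ± 0.48 (edgeR unadjusted p = 0.000836, adjusted p = 0.352). The pooled value of -0.88 ± 0.86 (edgeR adjusted p = 0.585) averages these unlike clones. Of the 7 genes of the interferon receptor and the complex ISGF3, 6 had positive values and 3 were higher at an unadjusted p under 0.05, with a median of 0.17. Irf9 was at 0.53 ± 0.17 (edgeR adjusted p = 0.291). Stat2, whose product joins that of Irf9 in ISGF3, was at 0.089 ± 0.28, with 122 and 218 CPM in WT against 158 to 231 CPM in KO.

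On the DNA side, 9 of 17 sensors had positive values, with 1 higher and 2 lower at an unadjusted p under 0.05 and a median of 0.12. Mb21d1, which encodes cGAS, had 36.1 CPM in WT mouse 1 and 38.1 to 43.3 CPM in the KO libraries, while WT mouse 2 had 11.2 CPM. Its value of 0.75 ± 0.40 (edgeR adjusted p = 0.416) was 1.85 without WT mouse 1 (adjusted p = 0.00101) and 0.12 without WT mouse 2. Ifi204 was at 1.04 ± 0.19 (edgeR adjusted p = 0.103; DESeq2 adjusted p = 4.63e-05). Aim2, the inflammasome sensor, was at 0.12 ± 0.19, and Hnrnpa2b1, a nuclear DNA sensor, at -0.75 ± 0.25 (edgeR adjusted p = 0.307). Of 20 genes of STING trafficking and cyclic dinucleotide handling, 7 were positive and the median was -0.075. The nuclease Trex1, which degrades cytosolic DNA, had 56.2 and 57.1 CPM in WT against 84.6 to 111 CPM in KO, at 0.78 ± 0.17 (edgeR adjusted p = 0.159; DESeq2 adjusted p = 0.00551). Samhd1, which hydrolyses deoxynucleotides, was at 0.68 ± 0.35 and Adar, which edits double-stranded RNA, at 0.38 ± 0.21, both with overlapping groups. Among the 19 nucleases and editors, 3 were higher and 1 lower at an unadjusted p under 0.05.

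Inhibitors of these pathways had 12 of 27 positive values and a median of -0.23, with 2 higher and 3 lower at an unadjusted p under 0.05. That median changed sign with the WT library left out, to -0.50 without mouse 1 and 0.16 without mouse 2. The 2 higher were Rnf125 and Usp18. Rnf125 was at 2.275 ± 0.66 (edgeR adjusted p = 0.277, DESeq2 adjusted p = 0.0121), and at 4.895 without WT mouse 1 and 1.618 without WT mouse 2. Usp18, which removes ISG15 and blocks the interferon receptor, had 49.55 and 92.04 CPM in WT against 102 to 154 CPM in KO. Its value was 0.80 ± 0.29 (edgeR adjusted p = 0.329, DESeq2 adjusted p = 0.171). Nlrx1, which restrains MAVS, was at -0.27 ± 0.26, and Tkfc, whose product inhibits MDA5, at -1.20 ± 0.36 (edgeR adjusted p = 0.282). Of the 11 genes around ZBP1 and necroptosis, 7 were positive, 2 were higher and 1 lower at an unadjusted p under 0.05, and the median was 0.054. Mlkl, the executioner of necroptosis, had 47.4 and 40.6 CPM in WT against 61.1 to 66.8 CPM in KO, at 0.53 ± 0.16 (edgeR adjusted p = 0.283). Ripk3, the kinase that ZBP1 engages, had 25.9 and 44.7 CPM in WT against 24.6 to 33.7 CPM in KO, at -0.31 ± 0.25 (edgeR adjusted p = 0.521).

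**Figure D5:**
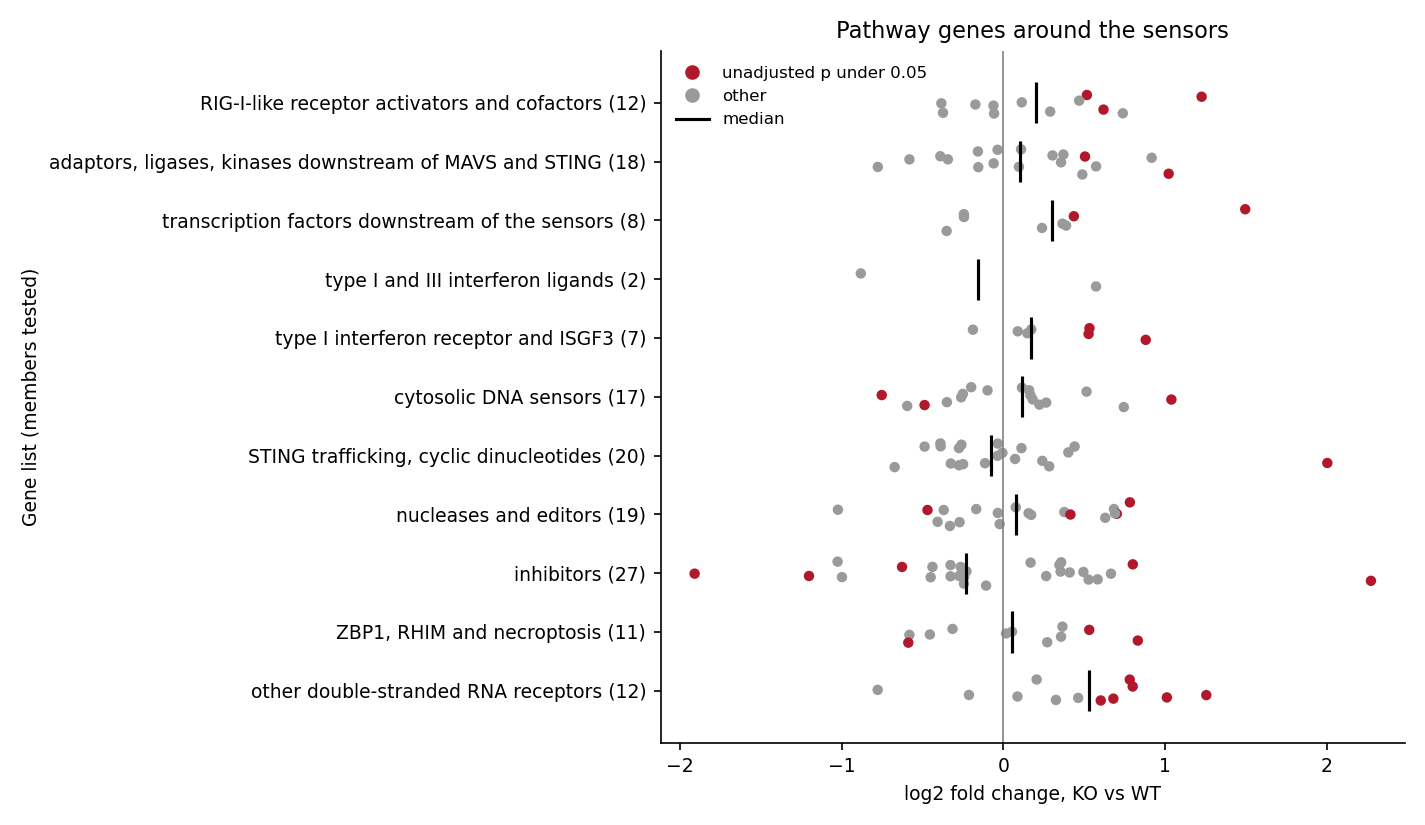
log2 fold change in KO against WT (edgeR) of the tested genes in each of the 11 pathway lists. Each point is a gene, red where its unadjusted p was under 0.05, and the black bar is the list's median. The list of other double-stranded RNA receptors has the highest median, 0.53, and the inhibitors the lowest, -0.23.

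The response element core described above was also looked for in all promoter windows. Of 131 pathway genes with a window, 18 (13.7%) held it, among them Eif2ak2, Ifit3, Ddx60 and Stat2. The share of all windows was 3.44%, counted per window and not per gene. Also among the 18 were Ifna1, Ifna2, Ifna4, Ifna5, Ifna6 and Ifna9, from the list of interferon ligands, of which 2 were tested. Of all genes tested, 438 held the core, with a median log2 fold change of 0.15 and all KO libraries above WT in 25.8%. The 11141 without it had a median of -0.0025 and 12.4%. Stat2, with overlapping groups, held it, while Irf7 and Trex1, with all KO libraries above WT, had windows without it.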

How the data were processed

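Macrophage RNA was depleted of ribosomal RNA before library construction, per the labels' protocols. The deposited table gives the authors' estimated counts for each gene symbol, in whole numbers without scaling. The submitters' processing notes name Salmon 0.7.2 and mm10. The sources used here do not state the transcript set, the filters or the use of strand.

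The labels make each library a separate mouse. Replicates differed beyond counting noise (chi-square per degree of freedom 80.5 to 860). CPM values use TMM-scaled library sizes. Genes kept by filterByExpr (minimum count 10, minimum total 15) entered the quasi-likelihood F test of edgeR 4.0.16 (R 4.3.3), with Benjamini-Hochberg adjustment over all of them. KO against WT had 2 levels, and the clones were contrasted in a 3-group model with a shared spread. Each SE was taken as the absolute log2 fold change over the root of F. The common coefficient of variation was 0.297. KO mice entered as replicates, although mice bearing 1 clone share it. The model was tested on simulated data. Lengths and positions come from GENCODE M21 and promoters from RefSeq on GRCm38.p6.

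The other settings tried were RLE factors, DESeq2 1.42.0, limma-voom (limma 3.58.1), 2 other filters, no Rn45s, a replicate block, the mean of the clones, raw totals and each library left out. Named singly were the 6 members, 18 pathway genes and, per list, up to 2 genes per direction at an unadjusted p under 0.05. Some genes that this rule allows are left out of the text. For likeness the 3 genes nearest to each member in r were taken. Members and lists were chosen with earlier results of these data known. Marker genes and library Rn45s are named as checks. Mouse numbers did not pair the groups (correlation of deviations -0.281, 0.050 and 0.220).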

Additional observations from a re-analysis of the deposited data

Results flagged for a closer look

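Tmem173 in KO clone 1 mouse 2 stood apart from the other KO libraries. Its level was 106.1 CPM, against 123.4 to 126.8 CPM in the other 3, so that the gap to its nearest neighbour was 0.838 of the whole range of the 4 libraries. Chance gives such a gap in about 1 of 20 groups, and 6 groups, 1 per gene, were looked at. The range itself was narrow, with the highest library 1.20 times the lowest, and the WT libraries lay at 87.28 and 134.6 CPM.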

How the results depend on the processing

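Values against WT turn on which WT library is used, and 2 WT mice set that limit. Over single left-out libraries the genes past the threshold ranged from 1 to 6020 for KO against WT, 0 to 5535 for clone 1, 0 to 6445 for clone 2 and 0 to 87 between clones, with every value over 28 for KO against WT coming without WT mouse 1. Over the same fits Ddx58 ran from 0.56 to 0.98, Ifih1 from 1.01 to 1.44, Mavs from -0.0059 to 0.49, Tmem173 from -0.15 to 0.44 and Zbp1 from 0.80 to 1.40 for KO. For clone 1 Ddx58 ran from 0.31 to 0.74, Ifih1 from 0.99 to 1.43, Mavs from -0.015 to 0.49, Tmem173 from -0.22 to 0.37 and Zbp1 from 0.79 to 1.39. For clone 2 Ddx58 ran from 0.78 to 1.20, Ifih1 from 1.02 to 1.46, Dhx58 from -0.11 to 0.74, Mavs from 0.0036 to 0.50, Tmem173 from -0.088 to 0.50 and Zbp1 from 0.80 to 1.40. Between clones Ifih1 ran from -0.17 to 0.25, Mavs from -0.032 to 0.065 and Zbp1 from -0.20 to 0.24. Pathway genes that changed sign were Ikbke (-0.14 to 0.40), Stat2 (-0.26 to 0.54), Aim2 (-0.088 to 0.34), Trim25 (-0.52 to 0.62, and 0.034 in limma-voom), Ripk3 (-0.65 to 0.10) and Nlrx1 (-0.65 to 0.22).

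DESeq2 called 499, 271, 465 and 117 genes in KO, clone 1, clone 2 and between clones, with Ifih1 at 1.22 and Zbp1 at 1.06 for KO, Ifih1 at 1.19 for clone 1, and Ddx58 at 0.98 and Ifih1 at 1.24 for clone 2 past the threshold. No filter called 111, 123, 229 and 53 genes, with Ifih1 at 1.24 past it for KO. For clone 2 against WT, RLE factors called 9 genes and leaving out Rn45s called 8. The filter of 5 CPM called 0 for either clone against WT, left no interferon ligand to test, and put Mavs at -0.0026 and Zbp1 at -0.016 between clones. The mean of the clones called 1 gene. The cause of these shifts was not tested.

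With the replicate block edgeR called 15 genes for KO against WT and 0 for either clone. It changed no call among the 6 members, with Ifih1 at 1.22 (adjusted p = 0.0861) and Zbp1 at 1.07 (adjusted p = 0.252). The mouse numbers are only labels here.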
